A study of Mus musculus with 40 samples.

Results

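Respiratory complex I is built from subunits encoded in the nucleus by the *Nduf* genes and in the mitochondrial genome. The genes described here are the rows of the count table whose symbol is *Nduf* followed by a, b, c, s, v or ab and a digit, with the *Ndufaf* assembly factors left out. The rule found 38 genes of 20295 in the table, of which 37 had enough counts to be tested along with 13277 genes in all. *Ndufs5* was not tested, because only 25 bases of it were counted and it had 0 to 13 counts per library. *Ndufb1* and the mitochondrially encoded subunits were not analysed here.

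The study asked how the constitutively active receptor GPR3 changes brown adipose tissue (BAT), the heat-producing fat, and how this compares with stimulation of the β3-adrenergic receptor. C-3BO mice carried a conditional *Gpr3* allele (*Gpr3* TTG) switched on by *Ucp1*-Cre, so that *Gpr3* was overexpressed in brown and beige adipocytes from early life, and their controls were littermates that had only one of these elements. Both were kept on chow or given a high-fat diet (HFD, 60% of calories from fat) for 7 days, which made the groups chow control, chow C-3BO, HFD control and HFD C-3BO, at 13 to 19 weeks of age. In a separate cohort aged 15 weeks, mice labelled as wildtype, which were control littermates from the cross with the tamoxifen-inducible *Ucp1*-CreERT2, were injected daily for 9 days with saline or with 1 mg/kg of the β3-adrenergic agonist CL-316,243 (CL), on chow or with HFD for the last 7 days, as the groups chow saline, chow CL, HFD saline and HFD CL. The study took tissues of injected mice on the day following the last injection, to judge chronic rather than acute effects of CL. All mice were male and housed at 29 °C, and each group had 5 mice with 1 library each, made from polyadenylated RNA of the BAT depot.

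Complex I takes electrons from NADH at the tip of a peripheral arm that projects into the mitochondrial matrix, passes them along iron-sulfur clusters to ubiquinone at the foot of that arm, and pumps protons through its membrane arm. The core subunits do the catalysis, and accessory subunits surround and stabilise them. In brown adipocytes the proton gradient made by this and the other complexes is dissipated by UCP1 to give heat. The members are described below by the place of their protein: the N module that oxidises NADH, the Q module that reduces ubiquinone, the accessory subunits of the peripheral arm, and those of the proximal and the distal membrane arm. *Ndufab1* encodes the mitochondrial acyl carrier protein, which is also part of complex I. *Ndufa4*, now counted with complex IV, and its paralogue *Ndufa4l2* match the rule by name but are not structural complex I subunits.

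The libraries held 849126 to 15260516 counts, with a median of 9050167, and the smallest was replicate 4 of HFD saline, below 3391730 for the next. Levels are given as CPM, counts scaled to a common library size, after TMM scaling, a correction for library composition. At these depths 3 counts were worth 0.206 to 3.01 CPM, which covers counting error only. *Gpr3* was at 265.9 to 463 CPM in chow C-3BO and at 688 to 918 CPM in HFD C-3BO mice, against at most 0.743 CPM in both control groups. *Ucp1*, *Cidea* and *Adipoq* were detected in every library. *Ucp1*, which CL is known to induce, was at 1267 to 1865 CPM in chow saline mice and at 5943 to 8987 CPM in 4 chow CL mice, but replicate 5 of chow CL stood within the saline range at 1645 CPM. *Gpr3* was at 9.15 CPM in replicate 3 of chow CL and at most 1.18 CPM in the other injected mice. The summed CPM of 12 skeletal muscle markers ran from 1002 to 11930 in chow control and from 539 to 4679 in chow C-3BO mice, but only from 36.8 to 313 in HFD control and from 53.2 to 129.8 in HFD C-3BO mice, and no marker was at 0 throughout a group. Markers of epididymis, a tissue that is no part of BAT, summed to 9.02 to 28.6 CPM in HFD saline and 17.8 to 44.1 CPM in HFD CL mice and to at most 0.224 CPM in the 4 chow groups. They reached 62.7 CPM in HFD C-3BO, where replicates 4 and 5 carried them. The liver gene *Alb* moved with them, at 62.1 to 170.4 CPM in HFD saline, 97.2 to 191 CPM in HFD CL and 294 and 272 CPM in those 2 C-3BO mice, against at most 1.62 CPM in every other library. The libraries with these markers were also the smallest, with 849126 to 7284129 counts, against at least 7349348 in every other library. Because poly(A) RNA of whole tissue was sequenced, fewer brown adipocytes and less RNA per brown adipocyte cannot be told apart.

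Levels differed widely among the members. Per kilobase of counted exon (RPKM), and averaged over the 40 mice, *Ndufa4* was the highest at 1239 RPKM and *Ndufa4l2* the lowest at 16.1 RPKM. In chow control mice *Ndufa4* was at 1516 ± 220 RPKM (mean ± SD, n = 5), *Ndufb9*, a distal membrane arm subunit, at 1338 ± 180.5 RPKM, and *Ndufb8* of the same arm at 1281 ± 165 RPKM. The spread of these 3 overlapped. Among core subunits *Ndufv1*, which binds FMN and accepts electrons from NADH, stood at 911 ± 69.7 RPKM. *Ndufs1*, the large iron-sulfur subunit of the N module, was lower at 345 ± 37.8 RPKM. The lowest structural subunits that were tested were *Ndufab1* (44.0 ± 8.38 RPKM), *Ndufb4* (62.4 ± 13.3 RPKM) and *Ndufa11* (64.5 ± 14.3 RPKM). These 3, *Ndufa12*, *Ndufs5* and *Ndufs6* have entries of similar name elsewhere in the RefSeq annotation (for example *Ndufb4b*, *Ndufb4c* and *Ndufab1-ps*). Sequences were not compared, and whether these entries share their reads was not tested, so their values are uncertain. Exons of 8 members overlap another annotated gene in GENCODE, among them *Ndufb6*, *Ndufs1* and, by 14 bases of *Shmt2*, *Ndufa4l2*, and as the library kit does not mark strand, reads from such overlaps cannot be told apart.

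**Figure D1:**
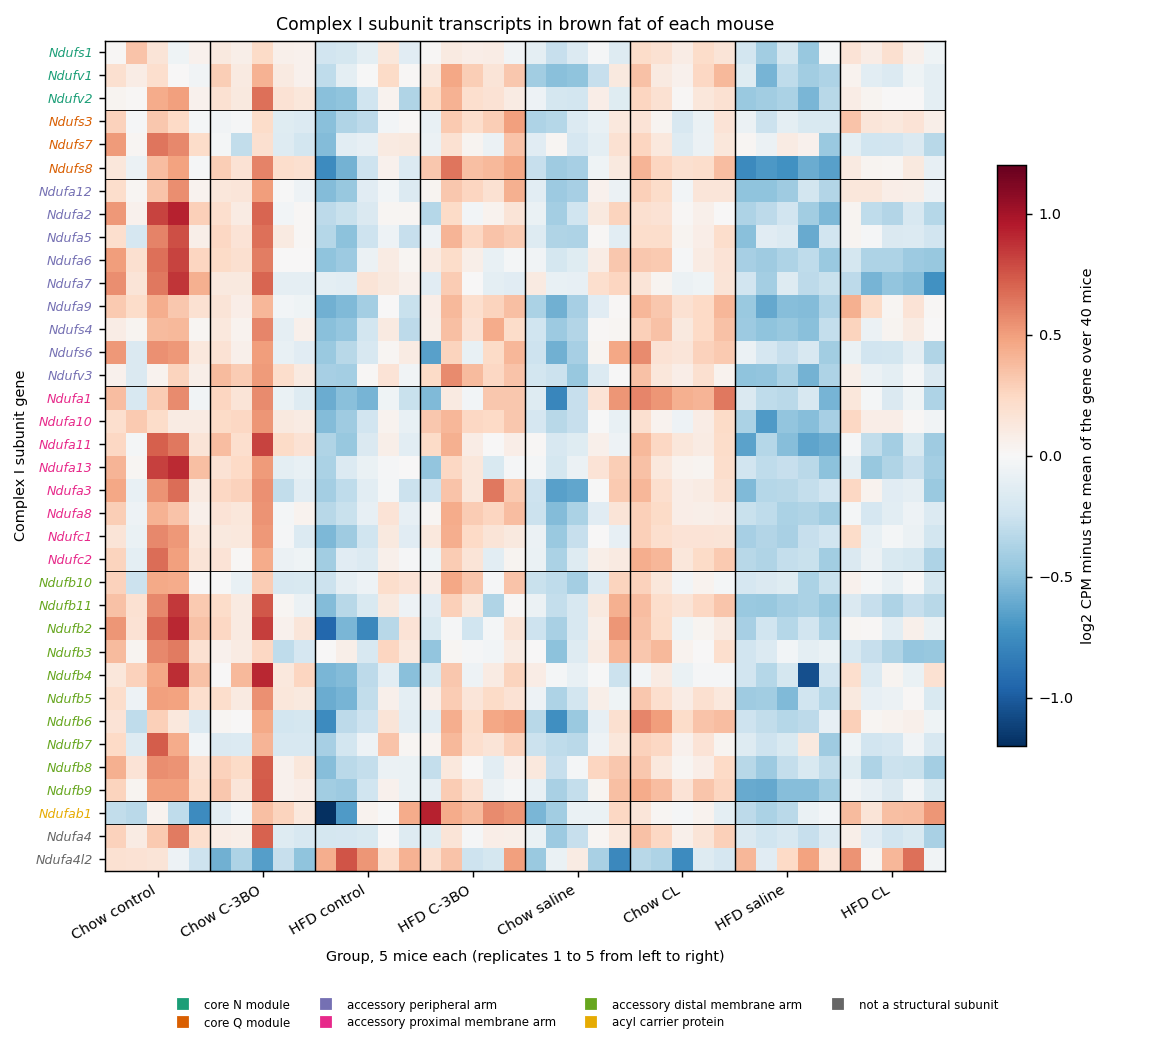
Each row is 1 of 36 tested members and each column 1 mouse; colour gives log2 CPM minus the mean of that gene over the 40 mice (capped at the ends of the colour bar), and name colours give the place of the protein in the complex. HFD control and HFD saline mice are mostly blue, HFD C-3BO and chow CL mice mostly red, and replicate 3 of chow C-3BO is redder than the other 4 mice of its group.

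On HFD, 20 of the 37 tested members were higher in C-3BO than in control mice and none was lower, at an adjusted p under 0.05 in edgeR's quasi-likelihood test; over all genes, 19.3% passed as higher and 15.5% as lower. The median log2 fold change of the members was 0.38, against -0.02 over all genes tested. *Ndufs3* and *Ndufs8* of the Q module rose, as did *Ndufv1* and *Ndufv2* of the N module, 5 of 9 accessory subunits of the peripheral arm, 6 of 8 tested subunits of the proximal membrane arm, 3 of 10 of the distal membrane arm and *Ndufab1*. Changes were small: no member in any comparison reached a log2 fold change of 1.

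*Ndufs8* encodes a core Q module subunit that carries iron-sulfur clusters and lies on chromosome 19 (mm9, chr19:3908863-3912774). It was at 173, 197, 246, 303 and 260.3 CPM in the HFD control mice and at 366, 456, 376, 384 and 403 CPM in the HFD C-3BO mice. The groups did not overlap, and the log2 difference was 0.75 ± 0.12 (SE, 1.68-fold, edgeR adjusted p = 5.0e-06). *Ndufa10*, an accessory subunit of the proximal membrane arm (chr1:94336296-94370335), stood at 570.1, 606, 695, 841 and 765 CPM in HFD control against 1020.2, 1077, 967, 962 and 1022 CPM in HFD C-3BO mice. Again no C-3BO value reached down to the controls (log2 difference 0.54 ± 0.09, edgeR adjusted p = 2.3e-05). *Ndufa9*, an accessory subunit next to the ubiquinone site (chr6:126771881-126799162), was at 294, 303, 329, 439.8 and 363 CPM in the controls and at 463, 573, 503, 526 and 560.1 CPM in C-3BO mice, without overlap (0.60 ± 0.11, edgeR adjusted p = 2.5e-05).

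Core subunits did not all pass. *Ndufv1* was at 1116 to 1614 CPM and 1503 to 1891 CPM, so the groups overlapped (0.30 ± 0.11, adjusted p = 0.026, not passing in 8 of 19 alternative settings). *Ndufs1*, with 687 to 889 CPM in control and 783 to 869 CPM in C-3BO mice, did not pass (0.16 ± 0.08, adjusted p = 0.14). The largest estimate was that of *Ndufab1*, which ran from 15.8 to 59.4 CPM in HFD control and from 56.8 to 82.3 CPM in HFD C-3BO mice (0.78 ± 0.19, adjusted p = 0.0014). *Ndufs7*, the core subunit that holds the terminal cluster N2, gave 0.18 ± 0.12 and did not pass (adjusted p = 0.26). Leaving out replicates 4 and 5 of HFD C-3BO, the libraries with epididymal markers, left 16 members higher and none lower. Endothelial markers (3 genes, none at 0) summed to 1244 to 1609 CPM in HFD control and to 1023 to 1184 CPM in HFD C-3BO mice, and their part in these differences was not tested.

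On chow no member was higher in C-3BO mice and 5 were lower, 13.5% of those tested, where over all genes 15.8% passed as higher and 15.9% as lower. The median log2 fold change was -0.09, against -0.03 over all genes. The 5 were *Ndufs7*, *Ndufa7* of the peripheral arm, *Ndufa13* of the proximal and *Ndufb3* of the distal membrane arm, and *Ndufa4l2*. *Ndufs7* was at 467, 333, 511, 489 and 382 CPM in chow control and at 322, 267, 375, 294 and 282 CPM in chow C-3BO mice. The groups overlapped only through the highest C-3BO mouse, and the log2 difference was -0.50 ± 0.12 (edgeR adjusted p = 0.0015). *Ndufa4l2*, known as a transcript raised in hypoxia, stood at 12.1 to 16.3 CPM in control and 9.08 to 11.8 CPM in C-3BO mice, without overlap (-0.52 ± 0.16, edgeR adjusted p = 0.013). *Ndufa7* ran from 182 to 296 CPM in control mice and from 151 to 177 CPM in 4 C-3BO mice, while replicate 3 reached 265.6 CPM (-0.37 ± 0.12, edgeR adjusted p = 0.017, not passing in 4 of 18 alternative settings). The count was 2 without replicate 4 of chow C-3BO and 10 without replicate 2 of chow control, and scaling by library totals alone gave 24 lower members (median -0.30), where the median of all genes fell to -0.23. Muscle markers summed to 1002 to 11930 CPM in chow control and 539 to 4679 CPM in chow C-3BO mice, and their part was not tested.

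The difference between these effects was tested by the interaction of genotype and diet. All 37 tested members had an interaction above 0, with a median of 0.48, against 0.02 over all genes. An adjusted p under 0.05 was reached by 6 members, all positive, where 1.35% of all genes passed as positive and 0.731% as negative. They were the Q module subunits *Ndufs3*, *Ndufs7* and *Ndufs8*, the peripheral arm subunits *Ndufa9* and *Ndufa12*, and *Ndufa10*. *Ndufa9* led, with an interaction of 0.78 ± 0.15 (edgeR adjusted p = 0.0022). It stood at 545, 511, 593, 546 and 497 CPM in chow control and 488, 461, 576, 428 and 423 CPM in chow C-3BO mice, so that 4 of the 5 C-3BO mice lay below every control on chow and all 5 above every control on HFD. The number of members passing depended on single mice: it was 2 without replicate 3 of chow control and 16 without replicate 3 of chow C-3BO, the mouse with the highest mean level of the members in its group (8.38 log2 CPM against 7.84 to 8.01). Without replicates 4 and 5 of HFD C-3BO it was 1.

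**Figure D2:**
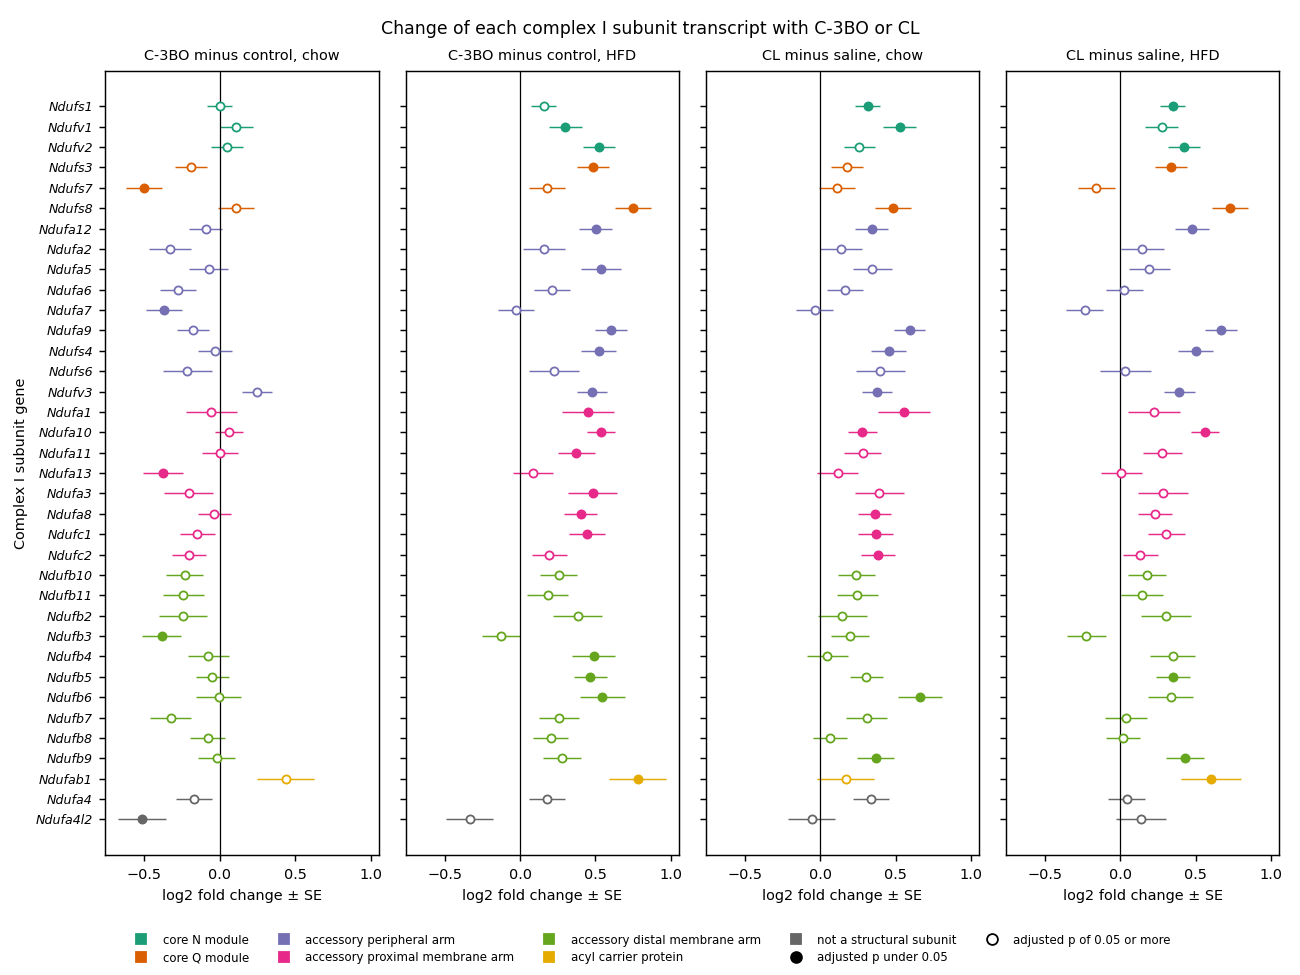
Log2 fold change (± SE) of 36 tested members for C-3BO against control and CL against saline on each diet, with filled points for an adjusted p under 0.05. With C-3BO on chow 5 points are filled and all of these lie below 0, while the filled points of the other 3 comparisons (19, 14 and 12) all lie above 0.

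With CL 15 members were higher on chow and 13 on HFD, and none was lower. On HFD, 18 were higher and 2 lower with groups fitted alone, and 9 higher and 2 lower with scaling by library totals alone, where the median of all genes fell to -0.15. Over all genes 9.16% passed as higher and 6.13% as lower on chow, and 12.7% and 10.8% on HFD. The median log2 fold change of the members was 0.31 on chow and 0.28 on HFD, against -0.01 over all genes on both diets. On chow 5 of 8 tested subunits of the proximal membrane arm, 4 of 9 of the peripheral arm, 2 of 10 of the distal membrane arm and 2 of 3 of the N module passed. On HFD only *Ndufa10* of the proximal membrane arm passed, against 4 of 9 of the peripheral arm, 2 of 3 of the N module, 2 of 10 of the distal membrane arm and *Ndufab1*, which did not pass in 5 of 18 alternative settings. Without replicate 3 of chow CL 16 members were higher on chow, and without replicate 5 of chow CL 13 were.

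*Ndufa9* had the lowest adjusted p on both diets. On chow it was at 336, 293, 332, 397 and 441 CPM with saline and at 577, 546, 497, 515 and 577 CPM with CL, without overlap (0.59 ± 0.11, edgeR adjusted p = 0.00014). On HFD the values were 320.2, 287, 308, 305 and 339 CPM with saline and 587, 511, 445, 489 and 441 CPM with CL, also without overlap (0.67 ± 0.11, edgeR adjusted p = 1.3e-05). *Ndufv1* on chow was at 1029.7, 973, 985, 1136 and 1495 CPM with saline and at 1750.2, 1478, 1425, 1629 and 1806 CPM with CL, where only saline replicate 5 reached the CL mice (0.53 ± 0.11, edgeR adjusted p = 0.00065). *Ndufb6*, a subunit of the distal membrane arm, stood at 192, 146, 178, 227 and 277 CPM with saline and 365, 345, 283, 307 and 314 CPM with CL on chow, without overlap (0.66 ± 0.15, edgeR adjusted p = 0.0019).

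On HFD *Ndufs8* was at 172, 182, 176, 193 and 186 CPM with saline and 315, 299.9, 297, 318 and 273 CPM with CL. All saline mice lay below all CL mice (0.73 ± 0.12, edgeR adjusted p = 2.2e-05). *Ndufa10* ran from 510.1 to 628 CPM with saline and from 793 to 972 CPM with CL on HFD (0.56 ± 0.09, edgeR adjusted p = 2.7e-05). *Ndufs1* passed on both diets with 0.32 ± 0.08 on chow and 0.35 ± 0.08 on HFD (edgeR adjusted p = 0.0070 and 0.0020). The C-3BO and CL effects on *Ndufs1* did not differ past the threshold on HFD (-0.19 ± 0.12, edgeR adjusted p = 0.51). In the saline group on chow, single mice moved the count: without replicate 2 it fell to 7 and without replicate 5 it was 19. The muscle marker sum was 48.1 to 3122 CPM in chow saline and 51.5 to 216 CPM in chow CL mice, and with it as a covariate 22 members were higher and none lower. The share of all genes that passed with this covariate is not given here, so that count lacks its background. On HFD the summed macrophage markers (5 in the table) ran from 220.2 to 559 CPM with saline and from 90.8 to 290.5 CPM with CL, and their part was not tested. Endothelial markers summed to 988 to 1061 CPM with saline and 1126 to 1542 CPM with CL on HFD, without overlap, and their part was not tested either.

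The interaction of CL and diet passed for none of the 37 members in edgeR, and for none in DESeq2. At an unadjusted p under 0.05 there were 2, 1 in each direction. The median was -0.05, and over all genes 0.0151% passed as positive and 0% as negative. The member with the lowest p, *Ndufb3*, had -0.42 ± 0.18 (edgeR adjusted p = 0.46). It was at 116 to 216 CPM in chow saline, 164 to 214 CPM in chow CL, 140.1 to 160.2 CPM in HFD saline and 119 to 143 CPM in HFD CL mice.

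On chow the C-3BO effect was below the CL effect in 36 of the 37 members, with a median difference of -0.43, against -0.03 over all genes. The difference passed for 6 members, all negative, where 2.83% of all genes passed as positive and 3.4% as negative. They were *Ndufa9* (-0.77 ± 0.15, edgeR adjusted p = 0.0012), *Ndufs7*, *Ndufc2*, *Ndufb3*, *Ndufb6* and *Ndufb7*. Without replicate 3 of chow control 1 member passed, and without replicate 5 of chow saline 15 did. Skeletal muscle markers differed among these chow groups. Their median sum was 8802 CPM in control, 1932 CPM in C-3BO, 1379 CPM in saline and 133 CPM in CL mice, and their part was not tested. On HFD none passed in edgeR or DESeq2, and 1, *Ndufa4l2*, had an unadjusted p under 0.05. The median difference on HFD was 0.10, and 0.753% of all genes passed as positive and 1.05% as negative. The cohorts were separate, and cohort and treatment cannot be told apart in these differences.

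Of the 20 members higher in C-3BO mice on HFD, 11 were also among the 13 higher with CL on HFD (55% of the first and 84.6% of the second list), and these comparisons share no mice. With the 15 of CL on chow, 12 were shared (60% and 80%). Of all tested members, 54.1% were higher in C-3BO mice on HFD. Common to all 3 lists were 7 members, among them *Ndufs4*, *Ndufs8*, *Ndufv3*, *Ndufa9*, *Ndufa10* and *Ndufa12*. *Ndufs4* and *Ndufa12* encode small peripheral arm subunits near the base of the N module. *Ndufa7*, *Ndufa13*, *Ndufa2*, *Ndufa6*, *Ndufs6*, *Ndufs7*, *Ndufb2*, *Ndufb3*, *Ndufb7*, *Ndufb8*, *Ndufb10*, *Ndufb11*, *Ndufa4* and *Ndufa4l2* were in none of them.

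**Figure D3:**
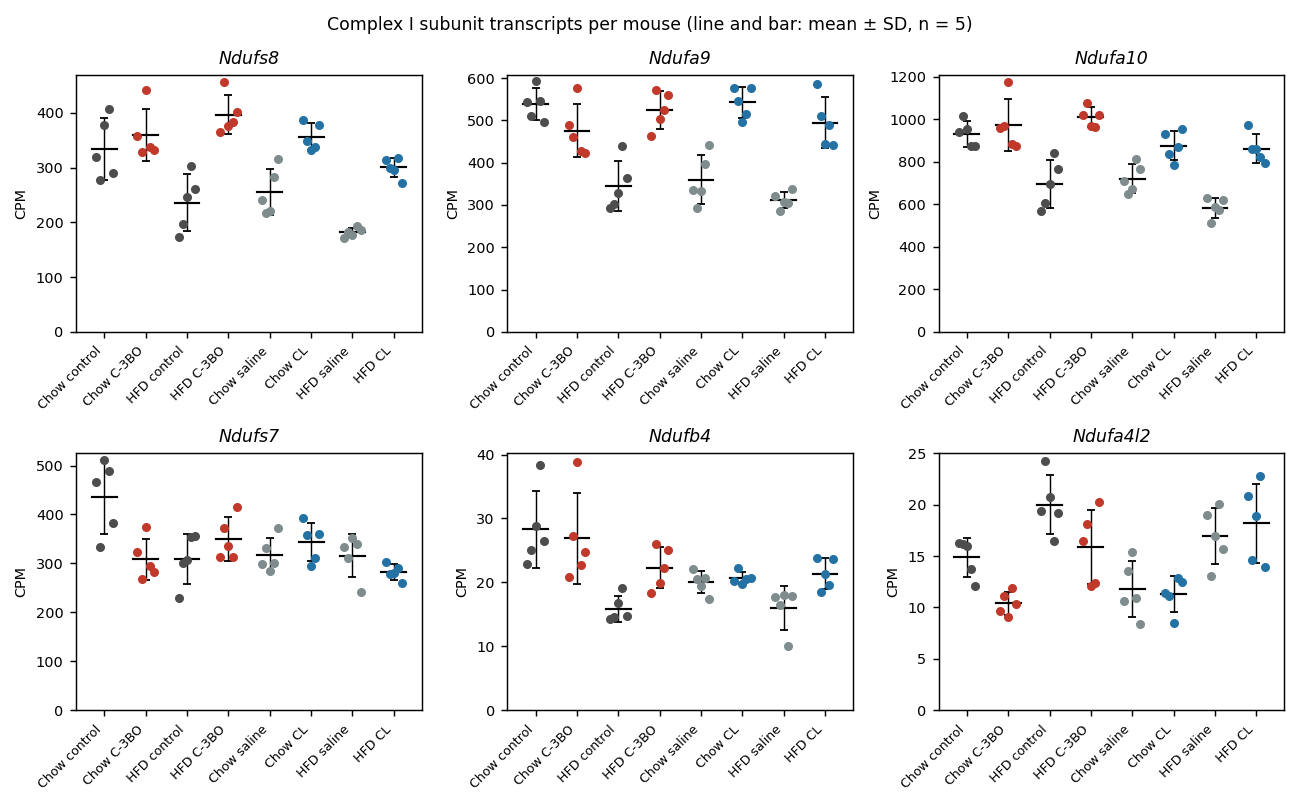
CPM of 6 members in each of the 40 mice, with the mean and SD of each group of 5. *Ndufs8*, *Ndufa9* and *Ndufa10* lie higher with C-3BO or CL than without on HFD, *Ndufs7* is highest in chow control, *Ndufb4* is lowest in HFD control and HFD saline, and *Ndufa4l2* is higher on HFD.

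Windows before the annotated start are shown for 5 of the 20 members that rose with C-3BO on HFD, to let their sequence be read beside these values. The RefSeq promoter table for GRCm38.p6 held 33 of the 38 members. It was searched on both strands, over the 300 bases from 250 before to 50 after each start, for letters bound by factors of nuclear genes for mitochondria. The NRF1 letters GCGCATGC were found in 3 of the 33 (*Ndufa6*, *Ndufa8* and *Ndufa11*; 9.09%), against 2.71% of all 32851 promoters. The shorter GCATGC, which it contains, was in the same 3, against 7.93%. The GABPA letters CCGGAAG were in 4 (*Ndufb6*, *Ndufb7*, *Ndufs3* and *Ndufs8*; 12.1%, against 8.86%). AAGGTCA, read by oestrogen-related receptors, was in 3 (*Ndufb2*, *Ndufb4* and *Ndufs5*; 9.09%, against 4.72%), and the longer TCAAGGTCA in none, against 0.423%. The YY1 letters AAGATGGCG were in 5 (15.2%, against 1.4%), and ATGGCG, which it contains, in 11 (33.3%, against 8.93%). None of the AAGATGGCG matches lay within the 250 bases before the start, so they reached into the 50 bases after it. Within the 250 bases, ATGGCG or its reverse complement was found only in *Ndufa1*, *Ndufa5*, *Ndufa7* and *Ndufb11*. A member counted where any of its promoters matched, while the shares of all were taken over single promoters, so the shares differ in unit. A match is a run of letters, not a site shown to be bound. Only the 250 bases before the start are printed, 5′ to 3′ on the strand of the gene. Among the other members that rose, *Ndufa1*, *Ndufa5* and *Ndufb6* also had a match before the start. *Ndufa3*, *Ndufa9*, *Ndufa12*, *Ndufab1*, *Ndufb5*, *Ndufc1*, *Ndufs4*, *Ndufs8*, *Ndufv1*, *Ndufv2* and *Ndufv3* had none there. Capitals mark the matches: NRF1 letters in *Ndufa8* and *Ndufa11*, where 2 overlapping matches on opposite strands run together, GABPA letters in *Ndufs3* and AAGGTCA in *Ndufb4*, while *Ndufa10* had no match in its window.
Ndufa8: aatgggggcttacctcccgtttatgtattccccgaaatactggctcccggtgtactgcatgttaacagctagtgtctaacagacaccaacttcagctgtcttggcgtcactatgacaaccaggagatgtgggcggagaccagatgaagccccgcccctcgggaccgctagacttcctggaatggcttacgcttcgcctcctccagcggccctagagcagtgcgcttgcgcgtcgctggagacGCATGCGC
Ndufa11: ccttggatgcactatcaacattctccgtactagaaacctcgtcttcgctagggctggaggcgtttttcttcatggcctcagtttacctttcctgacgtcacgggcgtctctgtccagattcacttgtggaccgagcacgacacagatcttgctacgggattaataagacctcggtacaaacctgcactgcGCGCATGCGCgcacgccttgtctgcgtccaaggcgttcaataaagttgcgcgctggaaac
Ndufs3: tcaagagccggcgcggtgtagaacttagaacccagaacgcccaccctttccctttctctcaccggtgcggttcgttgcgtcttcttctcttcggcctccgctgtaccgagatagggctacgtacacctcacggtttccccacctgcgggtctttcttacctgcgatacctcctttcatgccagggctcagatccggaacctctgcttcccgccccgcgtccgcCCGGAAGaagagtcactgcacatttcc
Ndufb4: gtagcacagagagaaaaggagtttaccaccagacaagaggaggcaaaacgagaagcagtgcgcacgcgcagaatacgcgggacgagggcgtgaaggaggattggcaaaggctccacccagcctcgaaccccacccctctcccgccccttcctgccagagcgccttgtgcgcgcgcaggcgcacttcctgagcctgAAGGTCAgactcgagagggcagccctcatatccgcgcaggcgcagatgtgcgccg
Ndufa10: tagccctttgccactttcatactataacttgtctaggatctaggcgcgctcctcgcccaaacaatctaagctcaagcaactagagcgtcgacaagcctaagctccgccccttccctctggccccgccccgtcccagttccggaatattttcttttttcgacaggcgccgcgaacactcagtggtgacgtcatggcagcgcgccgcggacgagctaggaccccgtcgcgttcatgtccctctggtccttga
The windows lie at chr2:36049339-36049588 (minus strand), chr17:56717512-56717761 (plus), chr2:90904722-90904971 (minus), chr16:37654369-37654618 (minus) and chr1:92473759-92474008 (minus), in this order, on GRCm38.p6.

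In control mice 28 of the 37 members were lower after 7 days of HFD and 1 was higher, where 17.5% of all genes passed as lower and 15.4% as higher. The median log2 fold change was -0.50, against 0.00 over all genes. All 8 tested subunits of the proximal membrane arm fell, as did 8 of 9 accessory subunits of the peripheral arm, 6 of 10 of the distal membrane arm and 2 of 3 of the N module. The chow and HFD control groups of this comparison are the same mice that served as controls for C-3BO. *Ndufb4*, a distal membrane arm subunit, was at 22.8, 25.1, 28.8, 38.4 and 26.5 CPM on chow and 14.3, 14.5, 16.8, 19.1 and 14.7 CPM on HFD, without overlap (-0.84 ± 0.14, edgeR adjusted p = 9.1e-06). *Ndufb2* of the same arm had the largest estimate of all members and comparisons (-0.99 ± 0.16, adjusted p = 9.6e-06). *Ndufa4l2* rose, from 12.1 to 16.3 CPM on chow to 16.5 to 24.3 CPM on HFD (0.43 ± 0.15, adjusted p = 0.029, not passing in 5 of 18 alternative settings), and *Ndufa4* fell, from 641 to 925 CPM to 519.5 to 603 CPM (-0.46 ± 0.12, adjusted p = 0.0030, not passing in 1 of 18).

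Skeletal muscle markers differed between the groups of this comparison. The 12 markers, all detected, summed to 1002 to 11930 CPM in the chow control and 36.8 to 313 CPM in the HFD control mice, so the groups did not overlap. With the log2 of this sum added as a covariate, 2 members were lower and none higher in edgeR, and the median was -0.29, where 6.33% of all genes passed as lower and 6.69% as higher. As the marker sum separated the 2 groups, diet and muscle content cannot be told apart here, and the part of muscle in the lower levels was not tested. The C-3BO comparison on HFD, where marker sums overlapped (36.8 to 313 and 53.2 to 129.8 CPM), had 21 members higher and none lower with the same covariate. The chow comparison had 2 higher and 4 lower, and the interaction of genotype and diet had 5 positive. The shares of all genes that passed with this covariate are not given here for these comparisons, so the counts lack their background. Endothelial markers (3 genes) also differed, with 615 to 949.7 CPM in chow control and 1244 to 1609 CPM in HFD control mice, and their part was not tested.

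In C-3BO mice 2 members were higher on HFD, *Ndufa4l2* among them, and 1 was lower (*Ndufb8*), against 13.5% and 12.2% of all genes, and the median was 0.00. Scaling by library totals alone gave 17 higher and none lower (median 0.19, against 0.21 over all genes). Muscle markers summed to 539 to 4679 CPM on chow and 53.2 to 129.8 CPM on HFD, and endothelial markers to 398 to 801 CPM and 1023 to 1184 CPM, both without overlap. With the muscle covariate 2 were higher and none lower (median 0.16), and the part of the endothelial markers was not tested. *Ndufa4l2* rose from 9.08 to 11.8 CPM to 12.1 to 20.3 CPM (0.61 ± 0.16, edgeR adjusted p = 0.0056, not passing in 1 of 19 alternative settings). *Ndufb8* was at 653 to 1038 CPM on chow and 517 to 686 CPM on HFD (-0.35 ± 0.11, adjusted p = 0.022, not passing in 5 of 19 alternative settings). Without replicates 4 and 5 of HFD C-3BO, 1 member passed.

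With saline 9 members were lower on HFD and 1 was higher, where 8.04% of all genes passed as lower and 7.45% as higher (median -0.22). With scaling by library totals alone 2 were lower and 1 higher, and without replicate 4 or replicate 5 of chow saline 5 were lower and none higher. Macrophage markers (102.8 to 212 CPM on chow, 220.2 to 559 CPM on HFD) and endothelial markers (695 to 883 CPM, 988 to 1061 CPM) did not overlap, and their part was not tested. *Ndufs8* led, from 217 to 316 CPM on chow to 172 to 193 CPM on HFD, without overlap (-0.49 ± 0.12, edgeR adjusted p = 0.0043). *Ndufa4l2* was the one that rose, from 8.42 to 15.4 CPM to 13.1 to 20.05 CPM, with overlap (0.50 ± 0.16, adjusted p = 0.035), a rise that did not pass in 9 of 18 alternative settings. With CL 13 were lower and 1 was higher, where 12.7% and 10.9% of all genes passed (median -0.26). It was 8 lower and 4 higher with library totals alone, where the median of all genes was 0.16, and 21 lower and 2 higher with groups fitted alone. Endothelial markers summed to 690 to 912 CPM on chow and 1126 to 1542 CPM on HFD, without overlap, and their part was not tested. *Ndufa7* fell from 155 to 182 CPM to 98.8 to 132 CPM, without overlap (-0.55 ± 0.12, edgeR adjusted p = 0.00098). *Ndufa4l2* rose again, from 8.499 to 12.9 CPM to 13.99 to 22.8 CPM (0.69 ± 0.16, adjusted p = 0.0017). All 9 members that fell with saline were among the 28 that fell in control mice (100% and 32.1%), and so were 11 of the 13 with CL (84.6% and 39.3%). Of all tested members, 75.7% fell in control mice. All HFD saline and HFD CL libraries carried epididymal markers and none of the chow ones did beyond 0.119 CPM. All of them also held fewer counts than any chow library. Diet, library depth and the presence of these transcripts cannot be told apart in the injected mice. The muscle sum ran from 48.1 to 3122 CPM in chow saline and 51.1 to 2580 CPM in HFD saline mice, and with it as covariate 6 members were lower and none higher.

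**Figure D4:**
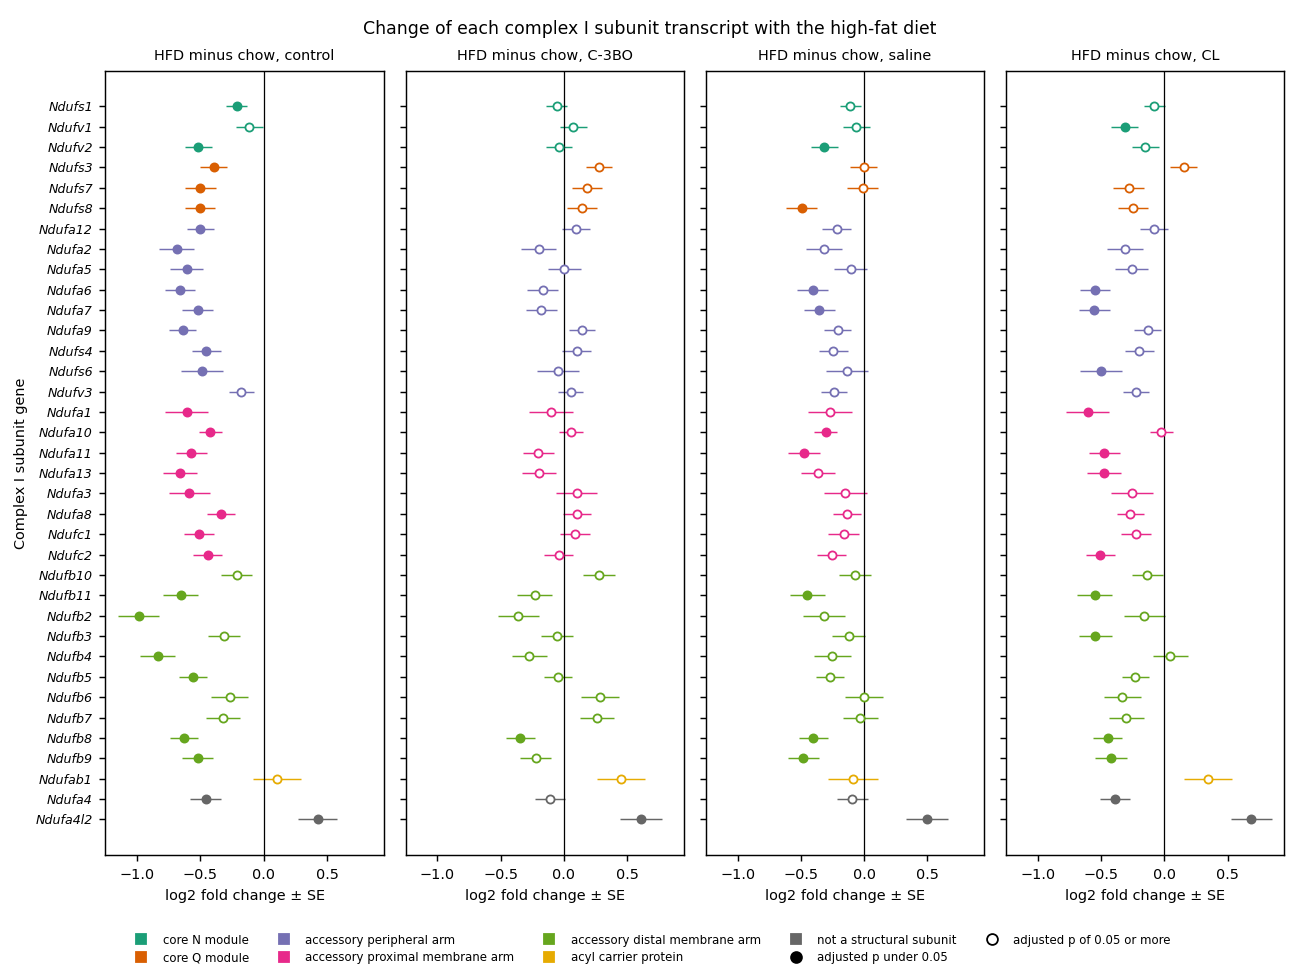
Log2 fold change (± SE) of 36 tested members for HFD against chow in control, C-3BO, saline and CL mice, with filled points for an adjusted p under 0.05. Filled points below 0 number 28, 1, 9 and 13, and *Ndufa4l2* is filled above 0 in each panel.

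The mean of log2 CPM over the 37 members puts each mouse on one scale. Chow control mice ran from 7.88 to 8.34 and HFD control mice from 7.42 to 7.94, chow C-3BO mice from 7.84 to 8.38 and HFD C-3BO mice from 7.85 to 8.20. Chow saline mice ran from 7.51 to 7.999, chow CL mice from 7.91 to 8.17, HFD saline mice from 7.51 to 7.57 and HFD CL mice from 7.68 to 7.95. HFD saline and HFD CL mice did not overlap, while HFD control and HFD C-3BO mice did through the highest of the former and the lowest of the latter. The members took 1.10% to 1.68% of the counts of the mice of the C-3BO cohort.

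**Figure D5:**
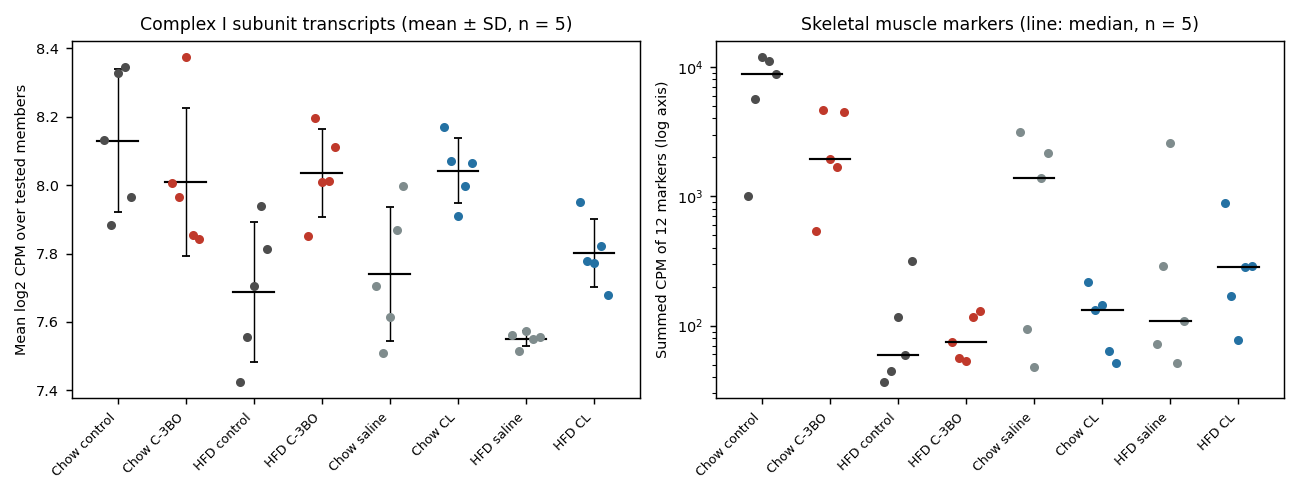
Left, mean log2 CPM of the 37 tested members in each mouse, with group mean and SD; right, summed CPM of 12 skeletal muscle markers in the same mice on a log axis, with group median. HFD saline mice lie within 7.51 to 7.57 on the left, and chow control mice hold the highest marker sums, up to 11930 CPM, on the right.

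Complex I assembly factors, which build the complex but are not part of it, had 15 genes in the table, all tested. For these and the next lists, the shares of all genes that passed as higher and as lower were 15.8% and 15.9% with C-3BO on chow and 19.3% and 15.5% on HFD, and 9.16% and 6.13% with CL on chow and 12.7% and 10.8% on HFD. With C-3BO 7 factors were higher (46.7%) and 1 lower on chow, and 11 were higher (73.3%) and none lower on HFD. With CL 9 were higher on chow, and 10 were higher and 1 lower on HFD. *Acad9*, an acyl-CoA dehydrogenase family member needed for assembly, rose in all 4 comparisons, by 0.55 ± 0.11 with C-3BO on chow, 0.70 ± 0.11 on HFD, 0.50 ± 0.10 with CL on chow and 0.68 ± 0.11 on HFD (edgeR adjusted p from 2.5e-06 to 0.00083). *Ndufaf4* had the largest estimate with C-3BO on HFD (1.11 ± 0.17, edgeR adjusted p = 3.2e-06). *Ndufaf3* was lower with C-3BO on chow (-0.37 ± 0.10, adjusted p = 0.0054) and with CL on HFD (-0.37 ± 0.11, adjusted p = 0.013). In HFD against chow control mice 5 factors were lower (33.3%, against 17.5% of all genes) and 1 higher.

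Nuclear-encoded subunits of complexes II to V (46 tested) had 4 higher (8.70%) and 6 lower (13.04%) with C-3BO on chow, both below the shares of all genes, and 25 higher (54.3%) and 1 lower on HFD, with medians of -0.13 and 0.31. With CL 18 were higher and 1 lower on chow, and 15 were higher and none lower on HFD. In HFD against chow control mice 27 were lower (58.7%, against 17.5% of all genes) and none higher (median -0.43). Mitochondrial ribosomal proteins (77 tested), which make the mitochondrially encoded subunits, had 24 higher (31.2%) and 4 lower with C-3BO on chow, where no complex I member was higher, and 45 higher (58.4%) and 1 lower on HFD. With CL 29 were higher on chow and 35 on HFD, and none was lower. No test compared these lists with the complex I members.

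Among 17 regulators of mitochondrial gene expression, 5 were higher (29.4%) and 1 lower with C-3BO on chow, 7 higher (41.2%) and 2 lower with C-3BO on HFD, 4 higher (23.5%) and 1 lower with CL on chow, and 5 higher (29.4%) and 1 lower with CL on HFD. *Gabpa*, an ETS family factor, rose in all 4, by 0.84 ± 0.11 and 0.74 ± 0.11 with C-3BO on chow and HFD and by 0.63 ± 0.11 and 0.72 ± 0.12 with CL (edgeR adjusted p from 7.6e-07 to 0.00018). *Tfb2m* and *Tfam*, which serve transcription of the mitochondrial genome, also rose in all 4, and the largest estimates were 0.80 ± 0.11 for *Tfb2m* with C-3BO on HFD and 0.62 ± 0.12 for *Tfam* with CL on HFD. *Ppargc1a*, a coactivator of mitochondrial genes, passed in none of the 4 (-0.02 to 0.19). For CL this describes tissue taken on the day following the last injection, and earlier times were not measured. *Ppargc1b* was lower on HFD with C-3BO (-0.56 ± 0.15, adjusted p = 0.0035) and with CL (-0.87 ± 0.15, adjusted p = 5.9e-05). Of 7 markers of mitochondrial mass, 3 were higher and 1 lower with C-3BO on chow, 3 were higher with CL on chow and 4 with CL on HFD, and none was lower with CL. With C-3BO on HFD 3 were higher and none lower, but *Cs*, citrate synthase, was not among them (0.06 ± 0.07, adjusted p = 0.54), while with CL *Cs* was higher on chow (0.25 ± 0.07) and on HFD (0.29 ± 0.07, adjusted p = 0.015 and 0.0035).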

How the data were processed

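The authors isolated polyadenylated RNA from BAT, made unstranded libraries, mapped reads to mm9 with STAR, made tag directories with HOMER and deposited exon read counts per gene made with iRNA-seq. Versions and filters are not given in the sources used here. These raw counts, as deposited, were fitted here with edgeR 4.0.16 (TMM scaling, quasi-likelihood F-test) over all 40 libraries and 8 groups. Genes were kept by filterByExpr with a minimum count of 10 (13277 of 20295), and p-values were adjusted by Benjamini-Hochberg over all of them, with a threshold of 0.05. CPM and RPKM were computed from the same counts, and RPKM used the counted exon length. Libraries held 849126 to 15260516 counts. The label of each sample set its group, and no 2 libraries were identical. Alternatives were DESeq2 1.42.0, other scaling and filters, groups fitted alone, the replicate number as a block, each library left out and, chosen after the marker levels were seen, muscle markers as a covariate. Shares of all genes are those of the main fit, unless another setting is named with them. Most counts of members under another setting are given without the share of all genes in that setting. Such counts lack their background. Members, roles, gene lists and motifs were chosen with earlier results of these data known.

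Named members were the 3 with the lowest adjusted p in each direction of each treatment comparison, the 1 in each direction of each diet comparison and the 1 with the lowest p in each interaction, plus members chosen for their role, and those with the highest and lowest RPKM. Counts cover all members, but 1 is not reported here by name and is not drawn gene by gene. Others were named after their values were seen. The marker lists of lymphocytes (6 genes, at most 9.73 CPM summed), blood (4 in the table, at most 24.2 CPM) and liver (14 genes, at most 569 CPM, in replicate 5 of HFD C-3BO) were also summed. Summed markers of adipocytes (5 genes) ran from 10569 to 18988 CPM and those of brown adipocytes (8 genes) from 5623 to 24941 CPM. Scripts were checked on simulated counts. Figures were drawn with matplotlib 3.10.9.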

Additional observations from a re-analysis of the deposited data

Results flagged for a closer look

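In 128 sets of 5 values (15 named members and the mean over members in 8 groups), 8 held a value far from the other 4 by Dixon's criterion, and chance gives about 1 in 20. Replicate 3 of chow C-3BO was the high one for 4 members: *Ndufa4* (981 CPM against 526 to 639), *Ndufa7* (265.6 CPM against 151 to 177), *Ndufb8* (1038 CPM against 653 to 759) and *Ndufs8* (442 CPM against 329 to 358). Replicate 4 of HFD control was high for *Ndufa4* (603 CPM against 519.5 to 538) and *Ndufs1* (889 CPM against 687 to 741). Replicate 1 of HFD C-3BO was low for *Ndufb3* (118 CPM against 160.3 to 176). Replicate 4 of HFD saline, the library with the fewest counts, was low for *Ndufb4* (10.0 CPM against 16.4 to 17.9).

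The effect of C-3BO differed between the diets by the interaction term, in edgeR at an adjusted p under 0.05, for *Ndufa9* (log2 difference 0.78), *Ndufs3* (0.67), *Ndufs7* (0.68), *Ndufa12* (0.60), *Ndufs8* (0.64) and *Ndufa10* (0.47). On chow the effect of C-3BO was below that of CL for *Ndufa9* (-0.77), *Ndufc2* (-0.59), *Ndufs7* (-0.61), *Ndufb7* (-0.63), *Ndufb3* (-0.58) and *Ndufb6* (-0.67). Both counts changed by over 1.5 times when single libraries were left out.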

How the results depend on the processing

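Alternative runs were followed for 35 pairs of a named member and a comparison, and none reversed direction. These pairs were chosen for a low p or because they had passed, so a reversal was unlikely from the start. Other named values were not followed in this way. Of the counts of members passing, these moved by over 1.5 times. Scaling by library totals alone gave 24 for C-3BO on chow, 7 for CL on chow, 17 for HFD in C-3BO (all higher), 3 for HFD with saline, 16 for the interaction of C-3BO and diet, and 21 for C-3BO minus CL effects on chow. Those last 2 and C-3BO on chow were 11, 10 and 8 with at least 10 counts in every library, and 12, 11 and 8 in DESeq2. The last 2 were 3 and 3 without a filter, 2 and 2 with groups fitted alone, and 10 and 11 with the replicate block, which moved no other count by over 1.5 times. Whether the replicate numbers pair the samples is not settled. No comparison had all 5 same-numbered pairs correlated above 0.1 (-0.38 to 0.44 over the 8 comparisons). At most 3 of 5 samples correlated best with their own number, as for C-3BO against control on both diets. Such correlations cannot show that pairing is absent. Groups fitted alone gave 20 for CL on HFD (18 higher, 2 lower) and 23 for HFD with CL (2 higher, 21 lower). Without replicates 4 and 5 of HFD C-3BO, HFD in C-3BO and the interaction were 1 and 1. The muscle covariate, chosen after seeing the data, gave 2 for HFD in controls and 6 for HFD with saline.

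Leaving out 1 library gave 2 to 10 for C-3BO on chow, and the count moved by over 1.5 times without replicates 2, 4 or 5 of chow control or 3, 4 or 5 of chow C-3BO. CL on chow ranged from 7 to 19, with such moves for replicates 2 and 3 of chow saline (7 and 7) and replicate 1 of chow CL (8). HFD with saline ranged from 5 to 12, with such moves for replicates 4 and 5 of chow saline (5 and 5) and replicate 4 of HFD saline (6). The interaction of C-3BO and diet ranged from 2 to 16, and moved without replicates 2, 3 or 4 of chow control, 2 to 5 of chow C-3BO, 1, 2 or 4 of HFD control, or 2, 4 or 5 of HFD C-3BO. C-3BO minus CL effects on chow ranged from 1 to 15, and moved without replicates 1 to 4 of chow control, any of chow C-3BO, 1, 2, 3 or 5 of chow saline, or 1 or 2 of chow CL. C-3BO on HFD ranged from 16 to 23, CL on HFD from 11 to 13, HFD in controls from 26 to 33, HFD in C-3BO from 3 to 4 and HFD with CL from 11 to 14. The cause of these shifts was not tested. The smallest library, with 849126 counts, limits what could be seen of low members in HFD saline.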
